A study of Mus musculus with 4 samples.

Results

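Foxp3+ regulatory T cells of the mouse lung were chosen by the measured transcripts of single cells. A cell was a member when it had at least 200 detected genes, at most 10% of its UMIs (unique molecular identifiers, which count RNA molecules) from mitochondrial genes, at least 1 Foxp3 UMI and at least 1 UMI of Cd3d, Cd3e or Cd3g. It also had to lack any UMI of Cd8a, Cd8b1, Rag1, Dntt and Cd79a, which mark CD8 T cells, T cell precursors and B cells. This rule found 96 cells among 15181 kept cells, with 28 in Lmna-KO 1, 36 in Lmna-KO 2, 23 in WT 1 and 9 in WT 2. They were set against 1244 Foxp3-negative Cd4 T cells, which had no Foxp3 UMI, at least 1 Cd4 UMI and the same Cd3 and exclusion criteria (339 and 320 cells in the Lmna-KO libraries, 350 and 235 in the WT libraries).

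The study measured live CD45.2+ lung cells of C57BL/6J mice at 10 weeks of age, with 2 libraries per genotype and a Chromium 3′ v3 kit. The Lmna-KO mice were Lmna-flox/flox Vav1-cre+/- and the WT mice were Lmna-flox/flox Vav1-cre-/-, so both genotypes carried the floxed alleles and the Lmna-KO mice alone carried Cre. Vav1-cre acts in blood-forming cells and their descendants, and an effect of Cre itself cannot be told apart from that of the deletion. The cells came from 2 mice per genotype, and since no label ties a library to a mouse, p-values measure the spread between these libraries. The purpose given by the series was to find the transcriptional consequences of losing lamin A in lung immune cells.

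Foxp3 encodes the transcription factor that defines regulatory T cells, which restrain other immune cells and limit inflammation. These cells take up interleukin 2 through a receptor that contains the alpha chain Il2ra, carry the inhibitory receptor Ctla4, and depend on continued Foxp3 expression. A resting form circulates through lymphoid organs with the homing receptor Ccr7, and an effector form settles in tissues such as lung, where it can carry the interleukin 33 receptor Il1rl1. Lamins A and C, the products of Lmna, form part of the filament meshwork under the inner nuclear membrane.

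The libraries held 21780914 and 21849805 UMIs (Lmna-KO) and 26433722 and 27045250 UMIs (WT). WT 2 stood apart from the others, because 459 of its kept cells fell in a T precursor class (Cd3 with Rag1 or Dntt, and no B cell gene), against 17 and 43 in the Lmna-KO libraries and 21 in WT 1. Results are therefore also given without WT 2 where that changes them. Pairs of libraries shared between 2 and 7 cell barcodes, 1 member had a barcode that also occurred in another library, and 0 barcodes were members in both. The median Foxp3+ cell had 4795 and 4843.5 UMIs in the Lmna-KO libraries and 4566 and 5326 UMIs in the WT libraries. The Foxp3-negative Cd4 T cells had medians of 4383 and 5182.5 UMIs (Lmna-KO) and 5363 and 5146 UMIs (WT).

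Lmna (chr3:88480147-88509956, minus strand, mm10, GENCODE M21) was the targeted gene. In Foxp3+ cells it had 4 and 2 UMIs in the Lmna-KO libraries and 12 and 3 UMIs in the WT libraries, or 23.2 and 7.596 against 81.9 and 48.5 CPM, which here is a gene's UMIs per 1000000 UMIs of the class in that library. Foxp3-negative Cd4 T cells had 10 and 14 Lmna UMIs (Lmna-KO) and 58 and 25 Lmna UMIs (WT). Both Lmna-KO libraries were below both WT libraries in each class. The labels do not give which part of the gene is floxed, and a 3′ count outside the deleted part does not measure the deletion. Lmna was too low in Foxp3+ cells to enter the test of genotype.

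The label of the cells was checked against genes that the rule did not use. Of the 96 cells, 89.6% had a UMI of Ctla4 (chr1:60887000-60915832, plus strand) and 84.4% had a UMI of Ikzf2 (chr1:69531214-69687245, minus strand), which encodes Helios, a transcription factor of regulatory T cells. Izumo1r (chr9:14885814-14903949, minus strand), a folate receptor family gene also known as folate receptor 4, was detected in 57.3%, and Il2ra (chr2:11642807-11693193, plus strand) in 56.2%. The same shares were 15.3%, 6.27%, 21.8% and 1.61% in Foxp3-negative Cd4 T cells, and 1.93%, 0.797%, 0.257% and 1.11% in B cells, whose median depth was 3452 and 3860 UMIs (Lmna-KO) and 3925 and 3937 UMIs (WT). At least 2 of the 3 genes Ctla4, Ikzf2 and Izumo1r were found together in 84 of the 96 Foxp3+ cells (87.5%), and in 96 of the 1244 Foxp3-negative cells (7.72%). No Foxp3+ cell lacked all 3 of them. At least 2 of the 3 were found in 85.7% and 94.4% of Foxp3+ cells in Lmna-KO and in 82.6% and 77.8% in WT, so the markers went with the label in each library.

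Per library, Ctla4 was detected in 89.3% and 94.4% of Foxp3+ cells in Lmna-KO and in 82.6% and 88.9% in WT. Ikzf2 was detected in 89.3% and 97.2% in Lmna-KO, above the 65.2% and 66.7% in WT. After each cell was thinned to 2979 UMIs, Ikzf2 was found in 82.6% and 90.9% of Lmna-KO cells and in 61.9% and 55.6% of WT cells. Izumo1r varied most among the 4 markers, at 64.3% and 36.1% in Lmna-KO and 82.6% and 55.6% in WT, and the genotypes overlapped.

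The Foxp3 threshold of 1 UMI was low. Foxp3 (chrX:7573644-7595245, plus strand) had 1 UMI in 33 members, 2 UMIs in 25 and at least 3 in 38. Members with 1 Foxp3 UMI, just inside the threshold, had Ctla4 in 84.8%, Ikzf2 in 78.8%, Izumo1r in 51.5% and Il2ra in 54.5% of cells. Members with at least 2 Foxp3 UMIs had these genes in 92.1%, 87.3%, 60.3% and 57.1%. Another 30 kept cells had a Foxp3 UMI but an excluded gene or no Cd3 UMI. They had the 4 genes in 80%, 76.7%, 46.7% and 36.7% of cells, with a median of 6861 UMIs per cell.

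**Figure D1:**
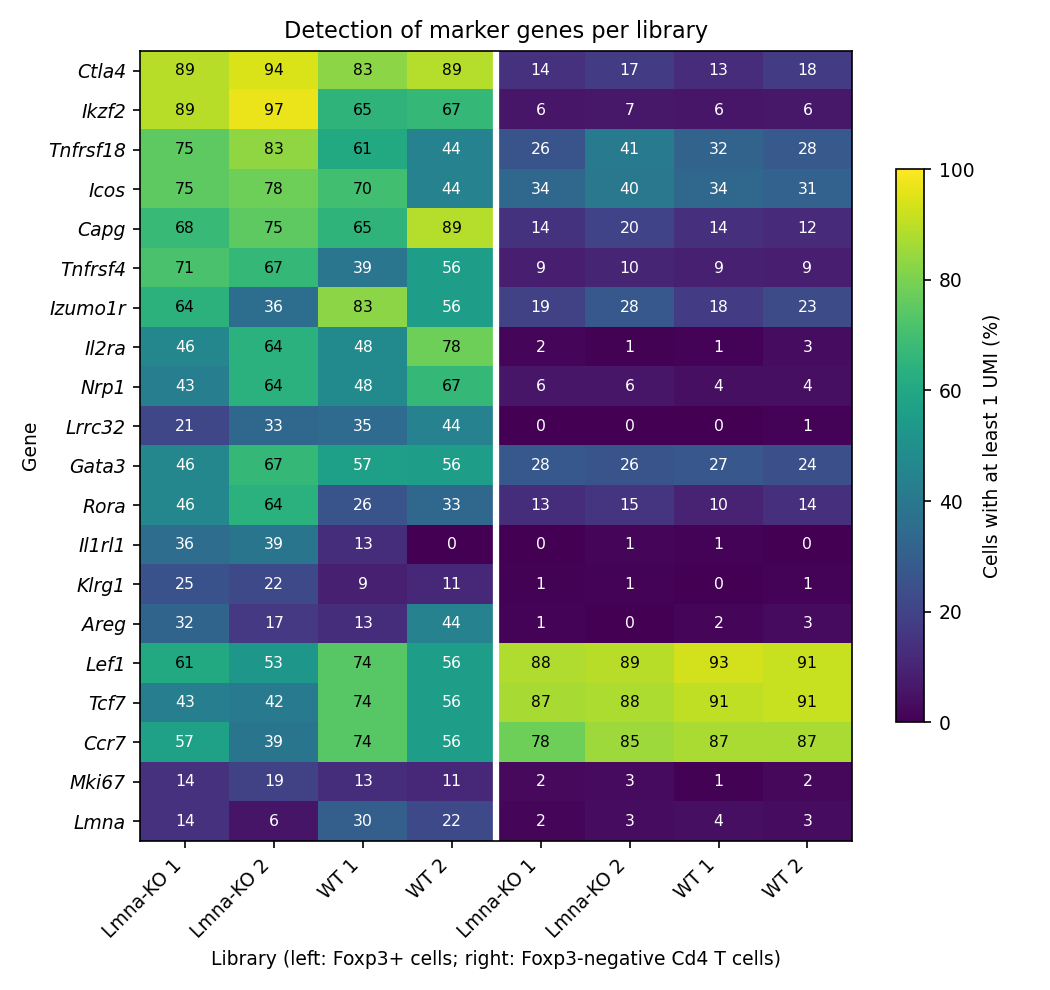
Percent of cells with at least 1 UMI of each gene (rows) in Foxp3+ cells (left 4 columns) and Foxp3-negative Cd4 T cells (right 4 columns), by library, with Lmna-KO left of WT for each class. Ctla4 lies between 82.6% and 94.4% in Foxp3+ cells of all 4 libraries and at 15.3% over all Foxp3-negative cells, while Lef1 and Tcf7 run the other way.

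Foxp3+ cells were a larger share of the Lmna-KO libraries, but 4 libraries did not resolve the difference. They made up 0.743% and 1.003% of kept cells in Lmna-KO and 0.584% and 0.232% in WT. The exact (Clopper-Pearson) 95% intervals, which cover counting error only, ran from 0.494 to 1.07% and from 0.703 to 1.39% in Lmna-KO, and from 0.370 to 0.874% and from 0.106 to 0.440% in WT. Both Lmna-KO shares were above both WT shares, and the intervals of Lmna-KO 1 and WT 1 overlapped. The means were 0.873 ± 0.184% in Lmna-KO and 0.408 ± 0.249% in WT (SD, n = 2 each), a 2.14-fold ratio, with a two-sided exact permutation p of 0.333, the smallest that 2 against 2 libraries allow. In edgeR's quasi-likelihood test over the cell numbers of 9 classes, the log2 ratio was 1.09 ± 0.54 (SE) and the adjusted p was 0.572. Without WT 2 this log2 ratio was 0.57, and without WT 1 it was 1.89, with adjusted p = 0.770 and 0.0836.

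Against other denominators the order of the libraries was the same. Of all Foxp3+ and Foxp3-negative Cd4 T cells together, Foxp3+ cells were 7.63% and 10.1% in Lmna-KO and 6.17% and 3.69% in WT, a 1.80-fold ratio of means (8.87 ± 1.76% against 4.93 ± 1.75%, SD, n = 2 each). Leaving out every cell with a Rag1 or Dntt UMI, which were most numerous in WT 2, gave 0.749% and 1.02% in Lmna-KO and 0.589% and 0.272% in WT, a 2.05-fold ratio.

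**Figure D2:**
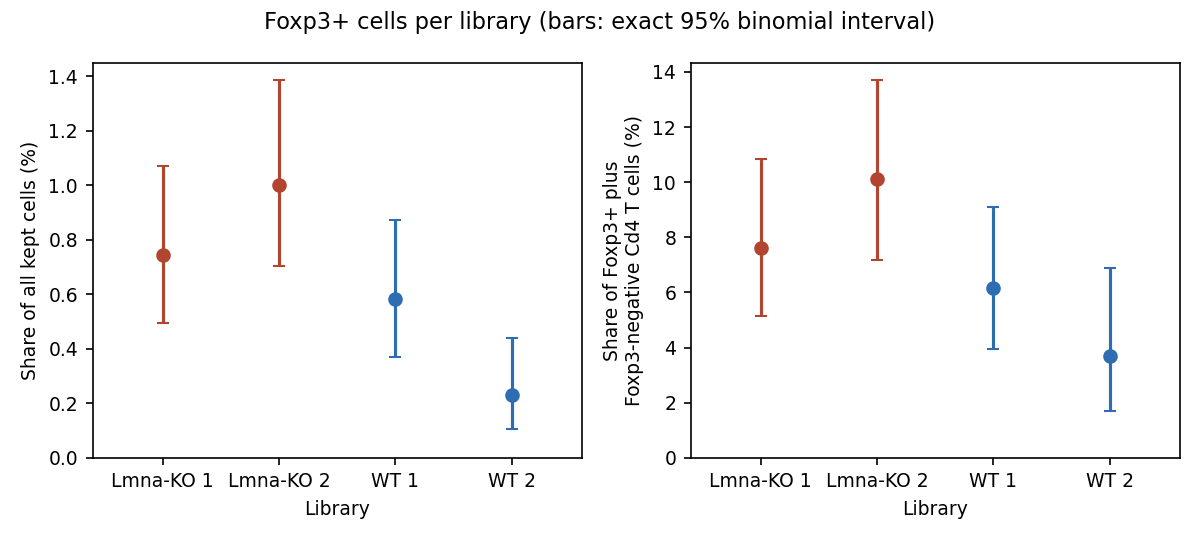
Share of Foxp3+ cells (y axis, percent) in each library (x axis), of all kept cells on the left and of Foxp3+ plus Foxp3-negative Cd4 T cells on the right, with exact 95% binomial intervals as bars. Points of both Lmna-KO libraries (0.743% and 1.003% on the left) lie above those of both WT libraries (0.584% and 0.232%), and the intervals of Lmna-KO 1 and WT 1 overlap.

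In Foxp3+ cells against Foxp3-negative Cd4 T cells of the same library, 15 of 18 tested genes of regulatory T cell identity and 10 of 19 of tissue effector cells were higher. Of the tested genes of resting T cells, 11 of 17 were lower. Counts were summed per library and class and tested with edgeR's quasi-likelihood test with library as a block, leaving out the genes of the rule. A gene was called when its Benjamini-Hochberg adjusted p was under 0.05. Of 7078 genes tested, 588 were called (8.31%), 305 of them higher (4.31%) and 283 lower (4% of those tested). The median log2 fold change over all tested genes was -0.04. The gene lists were chosen with earlier results of these data known. Counts of called list members beside all tested genes, here and below, are therefore a description and not an independent test.

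Of 22 genes listed for regulatory T cell identity, 18 were tested, 15 were higher (against 4.31% of all tested genes), none was lower, and the median log2 fold change was 2.46. Ctla4 had 813 and 965 CPM in Foxp3+ cells of Lmna-KO and 1113 and 1131 in those of WT, against 81.5 and 80.0 (Lmna-KO) and 61.7 and 66.3 (WT) in Foxp3-negative cells. The classes did not overlap, and Ctla4 was higher by 3.59 ± 0.16 on the log2 scale (SE; edgeR adjusted p = 2.83e-14). Il2ra averaged 187 ± 15.0 CPM in Foxp3+ cells and 4.49 ± 2.58 in Foxp3-negative cells (SD, n = 4 libraries each), a log2 fold change of 5.28 (edgeR adjusted p = 8.67e-11). Lrrc32, which encodes the receptor that holds latent TGF-beta on the surface, averaged 89.9 ± 42.0 and 0.360 ± 0.721 CPM, a log2 fold change of 7.58. In Foxp3-negative cells it rested on 2 UMIs, both in WT 2.

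Ikzf2 averaged 969 ± 420 CPM in Foxp3+ cells and 31.1 ± 6.75 in Foxp3-negative cells, a log2 fold change of 4.76 (edgeR adjusted p = 3.40e-06). Its relative Ikzf4, which encodes Eos, was also higher, at 45.1 ± 13.4 and 6.98 ± 1.497 CPM. Nrp1, a semaphorin co-receptor found on many regulatory T cells, was among the most even of the members, at 161 ± 8.53 and 14.7 ± 3.59 CPM. Izumo1r averaged 273 ± 124 and 70.9 ± 15.3 CPM, and its log2 fold change of 1.72 ± 0.41 did not pass (edgeR adjusted p = 0.0725). It passed without Lmna-KO 2 (adjusted p = 1.25e-05) and without WT 1 (5.86e-04), with at least 2 Foxp3 UMIs (9.32e-04), with other lineages left out (9.39e-06), without myeloid or MHC class II-rich cells (0.00469), without a low-count filter (4.74e-12), after thinning (1.60e-09), without the library block (0.0253), with Cd4 asked of neither class (0.00153) and with DESeq2 (1.83e-04).

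Among costimulatory receptors of the TNF family and their like, 6 of 13 tested were higher and 1 was lower (over all tested genes, 4.31% and 4%). The lists share genes, and of these 6, Tnfrsf9, Ctla4, Tnfrsf4, Tnfrsf18 and Icos were already counted as identity genes. Tnfrsf4 (OX40) averaged 222 ± 126 CPM in Foxp3+ cells and 26.4 ± 9.12 in Foxp3-negative cells, and Tnfrsf18 (GITR) averaged 280 ± 79.9 and 77.8 ± 18.3. Tnfrsf9 (4-1BB) and Icos were also higher, with log2 fold changes of 5.42 and 1.44. Cd40lg, the ligand by which helper T cells activate B cells, was lower, at 14.5 ± 14.7 and 51.4 ± 13.8 CPM (log2 fold change -2.14, edgeR adjusted p = 0.00255).

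Of 13 tested genes of the interleukin 2 pathway, 3 were higher and 2 lower (over all tested genes, 4.31% and 4%). Of these, Il2ra and Il2rb were also identity genes, and Bcl2 and Il7r were also in the resting list. Il2rb, the beta chain that interleukins 2 and 15 share, averaged 240 ± 28.6 CPM in Foxp3+ cells and 41.8 ± 17.4 in Foxp3-negative cells. Cish, a target of STAT5 that dampens cytokine signalling, was higher, at 62.4 ± 17.4 and 13.5 ± 3.25. Il7r, the interleukin 7 receptor, was lower, at 380 ± 117 and 802 ± 54.1 (log2 fold change -1.25, edgeR adjusted p = 2.73e-06). The survival gene Bcl2 was lower by 1.41 on the log2 scale, and this call was lost without Lmna-KO 1 (edgeR adjusted p = 0.0547).

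Few classical suppressive molecules could be measured. Of 18 listed, 9 were tested, and 4 were higher (over all tested genes, 4.31%): Lrrc32, Ctla4, Nt5e (CD73, which makes adenosine) and Fgl2. All but Fgl2 were also counted as identity genes. Fgl2 was not called without Lmna-KO 1 or without Lmna-KO 2 (edgeR adjusted p = 0.212 and 0.554). Il10 had 1 UMI in 1 of the 96 cells. Areg, an epithelial growth factor made by tissue regulatory T cells, was found in 22.9% of Foxp3+ cells and 1.37% of Foxp3-negative cells. Its summed level was 150 ± 87.7 and 13.5 ± 12.8 CPM and did not pass (log2 fold change 3.44 ± 1.31, edgeR adjusted p = 0.314). It passed without Lmna-KO 2 (adjusted p = 0.0189). Tigit, an inhibitory receptor, was at 0 of 96 cells, which allows a share of up to 3.125% of cells with a UMI. Il4 and Il17a, of other T helper programmes, were also at 0 of 96.

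Genes of effector and tissue regulatory T cells were higher in 10 of 19 tested, and none was lower (over all tested genes, 4.31% and 4%). Their median log2 fold change was 1.59, and Tnfrsf9 and Icos among the 10 were also identity genes. Klrg1, a receptor of terminally differentiated T cells, had 104 and 141 CPM in Lmna-KO Foxp3+ cells and 61.4 and 32.3 in WT Foxp3+ cells. In Foxp3-negative cells it averaged 3.02 ± 3.18, and the log2 fold change was 4.75 (edgeR adjusted p = 3.24e-06). The transcription factors Maf (295 ± 75.7 and 59.99 ± 7.596 CPM), Rora (227 ± 150 and 57.0 ± 12.5) and Gata3 (205 ± 67.0 and 79.9 ± 14.9) were higher in Foxp3+ cells, with log2 fold changes of 2.09, 1.82 and 1.21. S100a4, a calcium-binding protein gene of memory and effector cells, was higher by 2.18 ± 0.30 (edgeR adjusted p = 0.0137). This call was lost with other lineages left out (log2 fold change 2.47, edgeR adjusted p = 0.316). Among homing receptors, Ccr4 and the integrin gene Itgb1 were higher, with log2 fold changes of 2.10 and 1.0, and the Itgb1 call was lost with other lineages left out (edgeR adjusted p = 0.625).

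Genes of resting and lymphoid-homing T cells were lower in 11 of 17 tested and higher in none (lower over all tested genes, 4%), with a median log2 fold change of -0.86. Lef1 and Tcf7 encode the paired transcription factors of naive and central memory T cells. Lef1 averaged 192 ± 46.2 CPM in Foxp3+ cells and 663 ± 34.9 in Foxp3-negative cells, and Tcf7 averaged 174 ± 73.5 and 555 ± 48.6 (log2 fold changes -2.01 and -1.91, edgeR adjusted p = 2.43e-09 and 3.30e-08). Igfbp4 had 3 and 2 UMIs in Lmna-KO Foxp3+ cells and 6 and 1 UMIs in WT Foxp3+ cells, against 954 and 1110 (Lmna-KO) and 839 and 501 (WT) in Foxp3-negative cells, a log2 fold change of -4.95. The chromatin organiser Satb1 and the egress receptor S1pr1 were lower by 1.70 and 0.82. Klf2, which drives S1pr1, was lower by 0.51, and this call was lost without Lmna-KO 1 (edgeR adjusted p = 0.295) and without Lmna-KO 2 (0.157).

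Ccr7 was not called between the classes. It was at 593 ± 288 CPM in Foxp3+ cells and 709 ± 37.4 in Foxp3-negative cells (log2 fold change -0.59 ± 0.28, edgeR adjusted p = 0.343). Without WT 1 it passed (adjusted p = 0.0284). Outside the lists, Pdlim4, an actin-associated protein gene, had 0 UMIs in all 96 Foxp3+ cells and 56.2 ± 19.8 CPM in Foxp3-negative cells. The phosphodiesterase gene Pde3b was at 8.72 ± 12.9 and 95.9 ± 10.4 (log2 fold change -3.55, adjusted p = 3.57e-06), and Dusp4, a MAP kinase phosphatase gene, at 34.4 ± 31.7 and 1.10 ± 0.794 (log2 fold change 4.70).

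Cell cycle genes were higher in 8 of 23 tested and lower in none, against 4.31% and 4% of all tested genes (median log2 fold change 1.40). Mki67, a marker of proliferation, was found in 15.6% of Foxp3+ cells and 1.93% of Foxp3-negative Cd4 T cells. Per library its share was 14.3% and 19.4% in Lmna-KO Foxp3+ cells and 13.0% and 11.1% in WT Foxp3+ cells. Its level was 216 ± 82.6 CPM in Foxp3+ cells and 21.9 ± 10.7 in Foxp3-negative cells (log2 fold change 3.05, edgeR adjusted p = 1.24e-04), and 35.4% of its UMIs were in 1 cell. The Mki67 call was lost with doublets left out (edgeR adjusted p = 0.0553), with at least 2 Foxp3 UMIs (0.134), with other lineages left out (log2 fold change 1.81, adjusted p = 0.685) and without myeloid or MHC class II-rich cells (0.167). Without myeloid or MHC class II-rich cells, a setting chosen after seeing the data, the calls of Ube2c, Ccna2, Cenpf and Stmn1 were lost too (edgeR adjusted p = 0.101, 0.258, 0.341 and 0.448). Lmnb1, which encodes lamin B1, was higher too, at 176 ± 80.0 and 48.8 ± 16.2 CPM (log2 fold change 1.61), and was not called with other lineages left out (edgeR adjusted p = 0.221). Ribosomal protein genes ran the other way, with 70 of 89 tested called lower (over all tested genes, 4%) and a median log2 fold change of -0.60.

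Markers of other cells were also measured in this comparison. Of the B cell list, Cd79b was higher in Foxp3+ cells (36.9 ± 17.8 and 6.02 ± 2.32 CPM) and Ighm was called higher, while Cd22 and Ebf1 were at 0 UMIs. Of the NK cell list, Prf1, Klrd1 and Gzma were lower and 5 of 10 genes, Ncr1 among them, were at 0 in Foxp3+ cells. The Gzma call was lost with doublets left out (log2 fold change -0.70, edgeR adjusted p = 0.778), which removed no Foxp3+ cell. It was also lost without the library block (0.326). Prf1 was not called with other lineages left out (0.149), with DESeq2 (0.0721), without Lmna-KO 1 (0.0939) or without Lmna-KO 2 (0.176). With cells of other lineages left out, the calls of Mki67, Stmn1, Lmnb1, Itgb1 and S100a4 were lost, among others, and 444 genes were called in all. Of the resting genes called lower, Foxp1 (edgeR adjusted p = 0.0846) and Bach2 (0.174) were lost in this setting. The calls of Tmpo (0.678), Jun (0.315) and Gapdh (0.0659) were lost too. Allowing at most 5% mitochondrial UMIs left 3 and 12 Foxp3+ cells (Lmna-KO) and 7 and 3 (WT) and 15 called genes, and without Lmna-KO 1 there were 290 called genes, 142 higher and 148 lower. Ctla4, Ikzf2, Il2ra, Lrrc32, Klrg1, Lef1 and Igfbp4 stayed called in every alternative in which they could be tested.

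**Figure D3:**
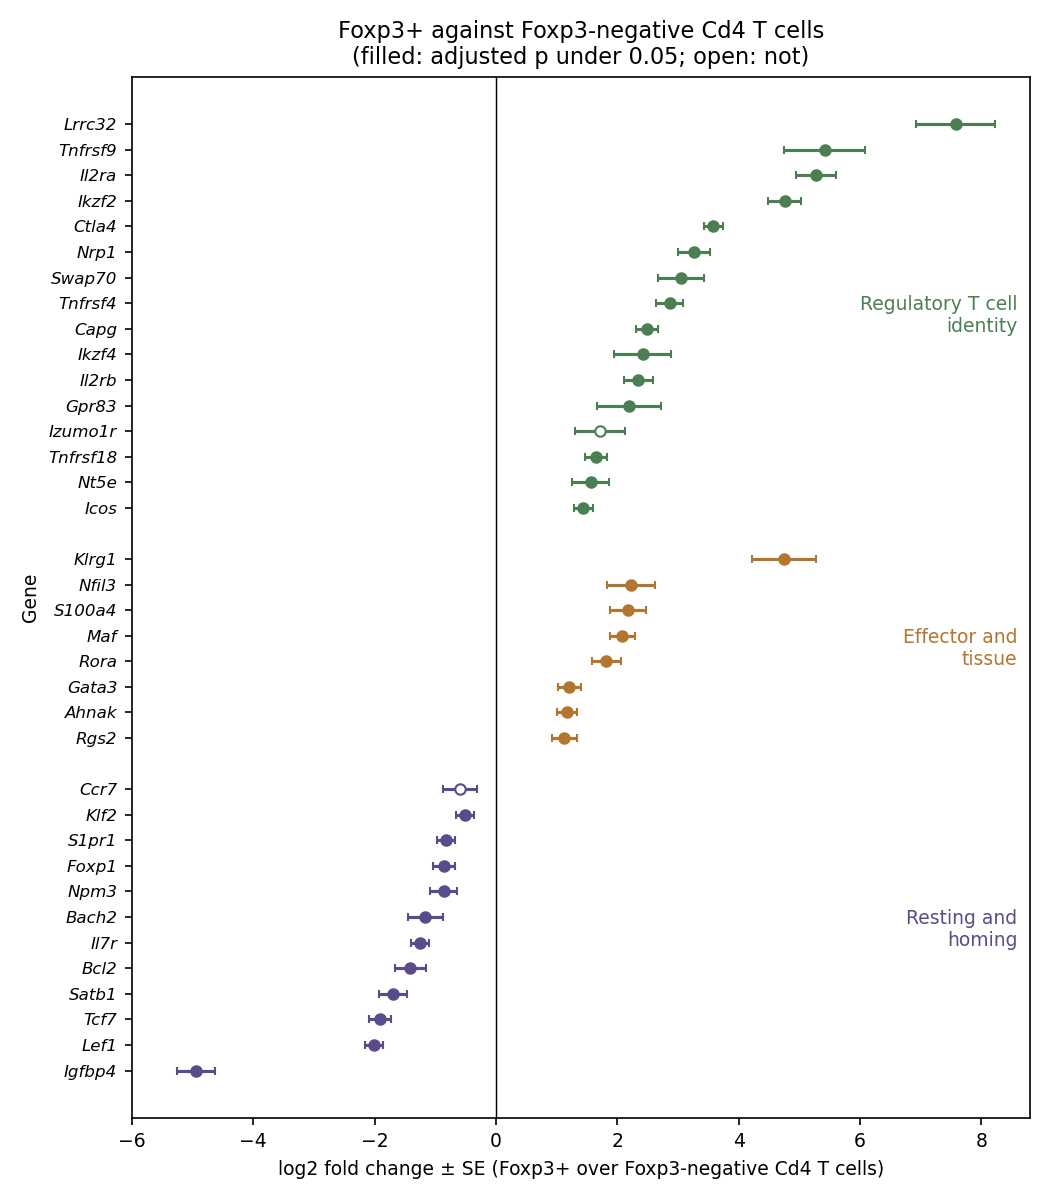
Log2 fold change (x axis) of Foxp3+ over Foxp3-negative Cd4 T cells with its SE as a bar for genes (y axis) of 3 lists, where filled points passed an adjusted p of 0.05 and open points did not. Most members that were not called are not drawn. The identity genes drawn run from Lrrc32 at 7.58 down to Icos at 1.44, the effector genes drawn are above 0, and the resting genes drawn are below 0, with Igfbp4 lowest at -4.95.

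Foxp3+ cells were not all alike. Ccr7 was detected in 52 of the 96 cells and absent in 44. Klrg1 was found in 36.4% of the cells without Ccr7 (16 of 44) and in 3.85% of those with it (2 of 52). Il1rl1, the receptor for the alarmin interleukin 33, was found in 77.8% of Klrg1-detected cells (14 of 18) and in 16.7% of the others (13 of 78). Maf was found in 68.2% of cells without Ccr7 and 28.8% of cells with it, and Tcf7 in 25% and 73.1%. Izumo1r was found in 34.1% of cells without Ccr7 and 76.9% of cells with it, while Ikzf2 was found in 95.5% and 75%. These shares pool cells of 4 libraries and are a description. Ccr7 was detected in 57.1% and 38.9% of Lmna-KO cells and in 73.9% and 55.6% of WT cells. Cells with and without Ccr7 therefore also differ in library and genotype, which was not separated here.

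Between genotypes, Foxp3+ cells of Lmna-KO had more of the effector genes Lgals1 and S100a4 and less of the homing receptor Ccr7 and of Actn1, while the identity markers did not pass the test. Of 2701 genes tested with edgeR, 23 were called (0.852%), 4 of them higher in Lmna-KO (0.148%) and 19 lower (0.703%), and 252 had an unadjusted p under 0.05 (133 higher, 119 lower). The median log2 fold change over all tested genes was -0.01. The number called was 56 without Lmna-KO 1, 37 without Lmna-KO 2, 55 without WT 1 and 61 without WT 2. Each of these fits leaves 1 library in a genotype, so the spread within that genotype is not measured and their calls are no added support. Fewer cells of a kind and less RNA per cell cannot be told apart in sums per library.

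Lgals1 (chr15:78926725-78930465, plus strand), which encodes the secreted lectin galectin 1, had 1776 and 1534 CPM in Lmna-KO Foxp3+ cells and 669 and 372 in WT. The genotypes did not overlap, and the log2 fold change was 1.52 ± 0.26 (edgeR adjusted p = 0.0123). S100a4 (chr3:90603771-90606045, plus strand) had 1724 and 2674 CPM in Lmna-KO and 846 and 792 in WT, without overlap (log2 fold change 1.34 ± 0.24, edgeR adjusted p = 0.0139). Their UMIs were spread over 61 and 51 of the 96 cells. Ccr7 (chr11:99144196-99155077, minus strand) had 371 and 319 CPM in Lmna-KO and 874 and 808 in WT, again without overlap (log2 fold change -1.38 ± 0.24, edgeR adjusted p = 0.0133). It was detected in 57.1% and 38.9% of Lmna-KO Foxp3+ cells and in 73.9% and 55.6% of WT Foxp3+ cells. After thinning these shares were 43.5% and 36.4% in Lmna-KO and 66.7% and 44.4% in WT.

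Actn1 (chr12:80167547-80260371, minus strand), which encodes the actin crosslinker alpha-actinin 1, had 75.4 and 60.8 CPM in Lmna-KO and 355 and 178 in WT (log2 fold change -2.15 ± 0.40, edgeR adjusted p = 0.0156). Both Lmna-KO libraries were below both WT libraries. Without WT 1 the log2 fold change of Actn1 was -1.44 (adjusted p = 0.303), and Ccr7 was not called without Lmna-KO 2 (adjusted p = 0.0552). Without WT 2, which left 1 WT library, the log2 fold changes were 1.21 for Lgals1, 1.29 for S100a4, -1.44 for Ccr7 and -2.48 for Actn1. Asking for at least 2 Foxp3 UMIs, which left 19 and 23 cells in Lmna-KO and 15 and 6 in WT, ended the calls of Lgals1 (adjusted p = 0.0986), S100a4 (0.159) and Ccr7 (0.167), and thinning ended them too (0.0678, 0.0976 and 0.220). Leaving out cells with genes of other lineages (21 and 26 Lmna-KO and 18 and 5 WT cells remained) ended all 4 calls, with adjusted p from 0.0669 for Actn1 to 0.807 for S100a4. The log2 fold changes were then 0.95 for Lgals1, 1.53 for S100a4, -1.22 for Ccr7 and -1.95 for Actn1.

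The effector and tissue list had 18 tested genes, of which 2 were called (Lgals1 and S100a4), 16 had a positive log2 fold change and the median was 1.21. Of all tested genes, 49.0% had a positive log2 fold change. S100a6, a relative of S100a4, had 1567 and 3137 CPM in Lmna-KO and 744 and 857 in WT, and S100a11 had 725 and 1063 against 430 and 194. The genotypes did not overlap for either, and neither passed (log2 fold changes 1.49 and 1.34, edgeR adjusted p = 0.139 and 0.124). With all libraries, S100a6 passed with DESeq2 (adjusted p = 7.88e-04), without a low-count filter (1.69e-07), after thinning (0.0125) and with the replicate block (0.0294). S100a11 passed with Cd4 asked of Foxp3+ cells (5.71e-04), with DESeq2 (0.0492) and without a low-count filter (5.54e-04). In the other settings that kept every library they did not pass. The log2 fold change of S100a6 was 1.92 without Lmna-KO 1, 1.42 without WT 1 and 1.58 without WT 2. That of S100a11 was 1.62 without Lmna-KO 1 and 2.17 without WT 1. Il1rl1 had 186 and 137 CPM in Lmna-KO and 47.8 and 0 in WT (log2 fold change 2.18 ± 0.61, edgeR adjusted p = 0.175, and a log2 fold change of 2.42 without Lmna-KO 2). It passed with at least 2 Foxp3 UMIs (edgeR adjusted p = 0.0442) and with Cd4 asked of Foxp3+ cells (0.0199). It also passed without myeloid or MHC class II-rich cells (0.0274) and without a low-count filter (0.0127), but in no other setting that kept every library. It was detected in 35.7% and 38.9% of Lmna-KO cells, in 13.0% of WT 1 cells and in 0 of 9 WT 2 cells, a count that allows up to 33.3%, and in 0.231% of B cells. Klrg1 was detected in 25% and 22.2% of Lmna-KO cells and 8.70% and 11.1% of WT cells (log2 fold change of its level 1.16 ± 0.48, adjusted p = 0.444). Its level passed with Cd4 asked of Foxp3+ cells (edgeR adjusted p = 0.00526) and in no other setting.

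The resting and lymphoid-homing list had 13 tested genes, of which 1 was called (Ccr7, lower), 12 had a negative log2 fold change and the median was -0.84. Satb1 had 238 and 224 CPM in Lmna-KO and 532 and 453 in WT and did not pass (log2 fold change -1.20 ± 0.27, edgeR adjusted p = 0.0576, and a log2 fold change of -1.30 without WT 2). It passed with at least 2 Foxp3 UMIs (edgeR adjusted p = 0.0122) and in no other setting that kept every library. Klf2 was at -0.59 on the log2 scale and did not pass (edgeR adjusted p = 0.428). All 18 tested genes of the T cell receptor and immediate early list had a positive log2 fold change, with a median of 0.58, and 0 were called. Of 20 tested cell cycle genes, 15 had a negative log2 fold change and 0 were called (median -0.52). These sign counts stand beside 49.0% positive over all tested genes. The genes of a list share cells and are not independent of each other.

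The 15 tested identity genes gave 0 calls and a median log2 fold change of -0.02. Ctla4 had 813 and 965 CPM in Lmna-KO Foxp3+ cells and 1113 and 1131 in WT, a log2 fold change of -0.42 ± 0.21 (edgeR adjusted p = 0.582). Ikzf2 had 1346 and 1242 in Lmna-KO and 867 and 420 in WT, a log2 fold change of 0.86 ± 0.28 (adjusted p = 0.288). Without WT 1, which left 1 WT library, it was 1.58. With Cd4 asked of Foxp3+ cells Ikzf2 passed (log2 fold change 1.07, edgeR adjusted p = 0.0141), but in no other setting that kept every library. Il2ra had 180 and 171 against 205 and 194, and Izumo1r had 342 and 144 against 410 and 194 (adjusted p = 0.872 and 0.802).

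The other called genes fell into 2 groups. Ribosomal protein genes made up 12 of the 19 lower genes, with log2 fold changes between -1.75 and -0.94, out of 80 tested with a median of -0.31. All 12 were also lower, TMM-scaled, in both Lmna-KO libraries than in both WT libraries in Foxp3-negative Cd4 T cells, where the log2 ratios of the means lay between -1.35 and -0.33. Tmsb10, an actin-binding peptide gene, had 2490 and 2773 CPM in Lmna-KO Foxp3+ cells and 4286 and 4218 in WT (log2 fold change -0.78, edgeR adjusted p = 0.0456, 0.0899 without Lmna-KO 1 and 0.0936 without WT 1). It was on the same side in Foxp3-negative cells.

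The second group rested on few cells. Cd74, the invariant chain of MHC class II, had 88 and 252 UMIs in Lmna-KO and 4 and 2 in WT, and 66.8% of its UMIs were in 1 cell of Lmna-KO 2. H2-Ab1, an MHC class II chain, had 17 and 70 UMIs in Lmna-KO and 1 and 0 in WT, with 75% in 1 cell, and was not called without Lmna-KO 2 (edgeR adjusted p = 0.621). Hist1h2ap had 3 and 7 UMIs in Lmna-KO and 41 and 58 in WT, in 5 cells. Over all MHC class II genes counted, the Foxp3+ cells had 123 and 485 UMIs in Lmna-KO and 6 and 3 in WT. The highest single cells held 111 and 452 of these in the Lmna-KO libraries, with 29983 and 15842 UMIs in all. Lyz2, S100a8 and S100a9 of myeloid cells summed to 16 and 746 UMIs in Lmna-KO and 33 and 506 in WT. In WT 2, 501 of the 506 were in 1 of its 9 Foxp3+ cells. That cell held 12985 of the 61873 UMIs summed for WT 2. In Lmna-KO 2 the highest cells held 501 and 219 of the 746.

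The dendritic cell list summed to 696 and 1553 CPM in Lmna-KO Foxp3+ cells and 41.0 and 48.5 in WT, and 7 of its 10 genes, Flt3, Xcr1 and Clec9a among them, were at 0. When the cells with such myeloid or MHC class II UMIs were left out, a step chosen after seeing the data, 27 and 34 Lmna-KO and 22 and 8 WT Foxp3+ cells remained and 43 genes were called. Lgals1, Ccr7 and Actn1 stayed called and S100a4 did not (edgeR adjusted p = 0.133).

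**Figure D4:**
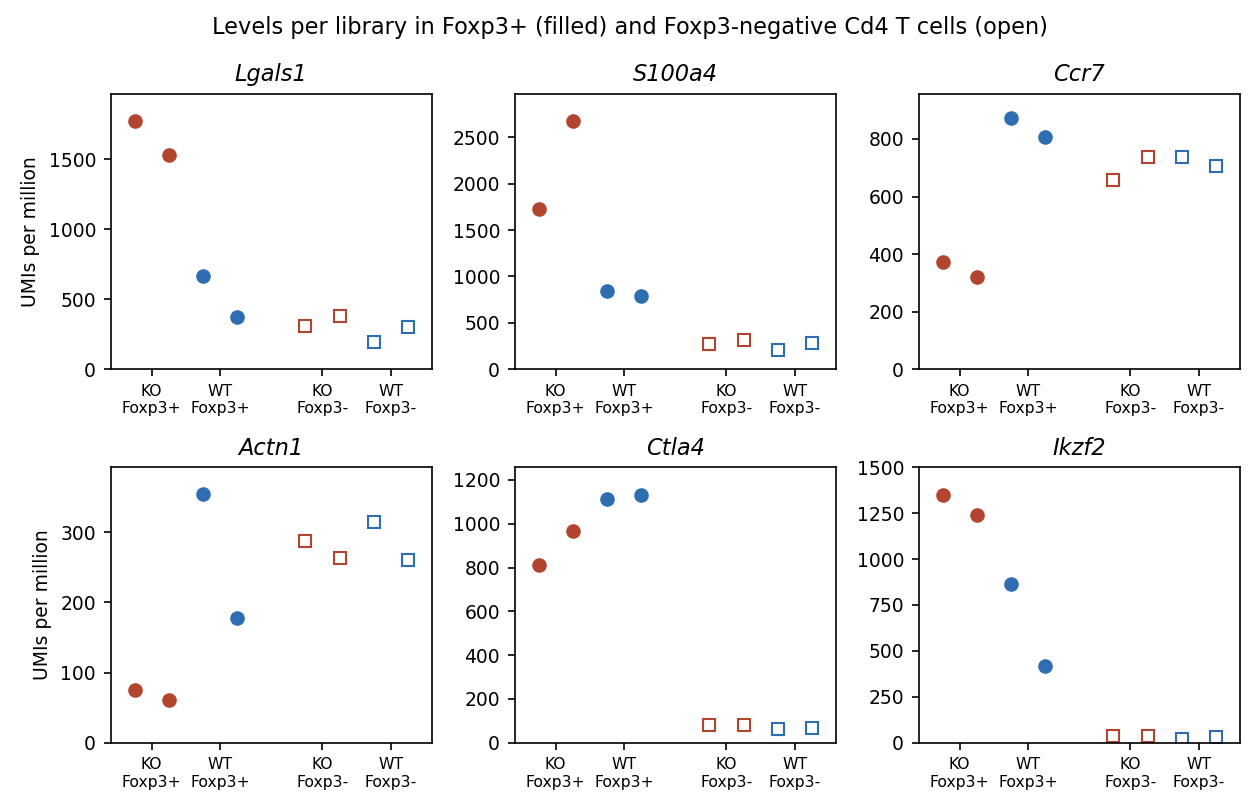
Level of 6 genes in CPM (y axis) in each library, in Foxp3+ cells (filled circles) and Foxp3-negative Cd4 T cells (open squares, labelled Foxp3-), with Lmna-KO (red) left of WT (blue). In Foxp3+ cells Lgals1 lies at 1776 and 1534 in Lmna-KO and at 669 and 372 in WT and Ccr7 at 371 and 319 and at 874 and 808, whereas the Foxp3-negative genotypes overlap for Ccr7, Actn1 and S100a4.

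Whether the genotype difference differed between Foxp3+ and Foxp3-negative Cd4 T cells was tested in edgeR as the difference of both effects, with a term for each library. A called difference can come from either class or from both. With a library left out, 1 genotype again had a single library, so its spread was not measured. Of 8151 genes, 35 were called (0.429%), 27 of them with a higher Lmna-KO effect in Foxp3+ cells (0.331%) and 8 with a lower one (0.0981%), and 483 had an unadjusted p under 0.05. The number was 63 without Lmna-KO 1 and 4 without Lmna-KO 2, where 0 genes were called lower; it was 25 without WT 1 and 42 without WT 2. After thinning, 3 genes were called, 100% of them higher, against 77.1% of 35 as deposited. No gene was then called lower, so the lower calls, those of Ccr7, Actn1 and Satb1 among them, were lost. When myeloid or MHC class II-rich cells were left out, 16 genes were called, 5 of them shared with the 35.

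The 4 genes of the genotype comparison were among the 35. In Foxp3-negative cells, Lgals1 had 311 and 384 CPM in Lmna-KO and 193 and 304 in WT, which did not overlap in CPM and did after TMM scaling (327 and 422 against 218 and 341). Ccr7 had 658 and 737 CPM there in Lmna-KO and 736 and 704 in WT, and the genotypes overlapped, as they did for S100a4 and Actn1. The log2 ratios of TMM-scaled means in Foxp3-negative cells were 0.42 for Lgals1, 0.18 for S100a4, -0.11 for Ccr7 and -0.13 for Actn1. The difference of effects was 1.16 ± 0.29 for Lgals1 (edgeR adjusted p = 0.01996), 1.21 ± 0.27 for S100a4 (0.00364), -1.16 ± 0.28 for Ccr7 (0.0149) and -1.88 ± 0.39 for Actn1 (6.40e-04). Each was lost without Lmna-KO 2, with adjusted p = 0.261 for Lgals1, 1 for S100a4 and Ccr7 and 0.672 for Actn1. Lgals1 was also lost without Lmna-KO 1 (0.641) and without WT 2 (0.945), S100a4 without WT 2 (0.315), Ccr7 without Lmna-KO 1 (0.0508) and WT 1 (0.208), and Actn1 without WT 1 (0.569).

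By list, 5 of 24 tested effector and tissue genes had a higher Lmna-KO effect in Foxp3+ cells (Cd44, S100a6, S100a11, S100a4 and Lgals1), with a median of 1.20 over the list and 0.08 over all tested genes. Of all tested genes, 0.331% were called higher and 0.0981% lower. S100a6 had a difference of 1.71 ± 0.27 (edgeR adjusted p = 3.17e-07, and 0.506 without Lmna-KO 2), and it remained called after thinning. Of 17 resting and lymphoid-homing genes, 3 were lower (Ly6c1, Ccr7 and Satb1; median -0.72), and of 22 immediate early genes 4 were higher (Fos, Zfp36, Dusp1 and Junb; median 0.77). Of 24 cell cycle genes, 1 was lower (Birc5, median -1.24 over the list). In Foxp3-negative cells, Fos had 66.03 and 80.59 CPM in Lmna-KO, below 227.4 and 328.7 in WT. Zfp36 and Dusp1 were also lower there in both Lmna-KO libraries, while Junb overlapped. Birc5 had 33.94 and 20.01 CPM there in Lmna-KO, above 4.237 and 5.046 in WT. Within Foxp3+ cells the genotypes overlapped for Dusp1 and Birc5, while Fos, Zfp36 and Junb were higher in both Lmna-KO libraries. Without Lmna-KO 2, Fos was the single gene of these lists still called. The chemokine receptor gene Ccr2 had 71 and 89 UMIs in Lmna-KO Foxp3+ cells and 11 and 14 in WT, or 412 and 338 against 75.1 and 226 CPM. Foxp3-negative cells had 127 and 89 UMIs (Lmna-KO) and 127 and 129 (WT), or 78.4 and 49.5 against 59.8 and 93.0 CPM. The difference of effects was 1.86 ± 0.41 (edgeR adjusted p = 0.00233), and it was not called without Lmna-KO 2 or without WT 1. Between genotypes in Foxp3+ cells Ccr2 did not pass (edgeR adjusted p = 0.194). With all libraries it passed there without myeloid or MHC class II-rich cells (4.16e-04) and without a low-count filter (0.0123), and in no other setting.

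The called differences also held myeloid and MHC class II genes, namely Cd74, H2-Aa, H2-Ab1, H2-Eb1, S100a8, S100a9, Il1b and Mrc1. S100a8 had 1 and 55 UMIs in Lmna-KO Foxp3+ cells and 6 and 1 in WT, against 28 and 370 (Lmna-KO) and 1087 and 333 (WT) in Foxp3-negative cells. Of H2-Eb1 and S100a8, 96.2% and 76.2% of the UMIs in Foxp3+ cells were in 1 cell of Lmna-KO 2. Without myeloid or MHC class II-rich cells the difference of Cd74 was -0.43, in place of 5.08, and Actn1 stayed called at -1.63. The identity markers were not called, with differences of -0.59 for Ctla4, 0.61 for Ikzf2, -0.90 for Izumo1r and -0.04 for Il2ra (edgeR adjusted p = 0.808, 0.873, 0.678 and 1). Passing values for Ikzf2 without WT 1 and for Izumo1r without WT 2 came from fits with 1 WT library, which do not measure the WT spread.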

How the data were processed

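The deposited files are 4 matrices of unnormalised UMI counts over 31053 features, and per the submitters' processing notes Cell Ranger 3.0.2, Seurat 3.0.0 and mm10 were used; which step used which, and any removal of free RNA, is not given in the sources used here. Per the labels, about 9600 cells were processed at 25000 reads per cell. Members and gene lists were chosen with earlier results of these data known. Sums per library and cell class went into edgeR 4.0.16 (filterByExpr, TMM scaling, robust quasi-likelihood test; R 4.3.3), with Benjamini-Hochberg adjustment over all genes tested. Comparisons within libraries had library as a block. The genes of the cell rule were left out of the tests they define. A comparison within the Foxp3+ cells and values of some genes are not reported here. Levels (CPM) are UMIs per 1000000 UMIs of the class in a library, without TMM, as a mean ± SD of libraries, and fold changes come from the fit. Counts of a 3′ kit were not divided by length.

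Named genes were Lmna, Ctla4, Ikzf2, Izumo1r and Il2ra, then the 12 highest and 12 lowest log2 fold changes among called genes with at least 30 CPM in the higher class and 1 direction in every library, and called members and up to 4 others of each of 26 lists; the text names part of these. Where under 5 passed in a direction, the 5 smallest p were also taken. Immunoglobulin, receptor segment, mitochondrial, ribosomal, hemoglobin, sex-linked and unnamed model genes were left out. Doublets were scored with simulated doublets (0.8% per 1000 cells), which marked 114 and 103 cells in Lmna-KO and 124 and 120 in WT and no Foxp3+ cell; they were removed only as an alternative. Alternatives were DESeq2 1.42.0, other scaling and filters, thinning, stricter cell rules, a replicate block and leaving out each library. The tests were tried on simulated counts first.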

Additional observations from a re-analysis of the deposited data

Results flagged for a closer look

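The Lmna-KO effect differed between Foxp3+ and Foxp3-negative Cd4 T cells for 29 named genes, each by an edgeR test of the difference itself (adjusted p under 0.05, log2 scale, Lmna-KO over WT in Foxp3+ minus the same in Foxp3-negative cells). The values below 0 were Birc5 -2.92, Ly6c1 -2.41, Pclaf -2.11, Ezh2 -2.04, Tnfsf8 -2.03, Actn1 -1.88, Ccr7 -1.16 and Satb1 -1.12. Those above 0 were Junb 0.96, Dusp1 1.12, Lgals1 1.16, S100a4 1.21, S100a11 1.56, S100a6 1.71, Ccr2 1.86, Cd44 1.98, Zfp36 2.00, S100a9 3.09, Il1b 3.11, Fos 3.37, Serpinb6a 3.41, S100a8 3.58, Cd74 5.08, H2-Aa 5.14 and H2-Ab1 5.93. The values of the myeloid and MHC class II genes rested on few cells. In Lmna-KO 2 Foxp3+ cells, the highest cell held 452 of the 485 UMIs of Cd74, H2-Aa, H2-Ab1 and H2-Eb1. The highest cells held 501 and 219 of 746 UMIs of Lyz2, S100a8 and S100a9, and 75 and 47 of 128 of Il1b. Without myeloid or MHC class II-rich cells, the values of Cd74, Il1b and S100a9 were below 0.

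Another 4 genes had 0 UMIs in the WT Foxp3+ cells of both libraries, so that their fitted values (Hdc 8.99, Mrc1 9.28, H2-Eb1 9.58 and G0s2 9.77) depend on the prior count and are no bound. In Lmna-KO Foxp3+ cells they had 0 and 14, 0 and 9, 3 and 76, and 0 and 16 UMIs. Of the 35 genes called, 4 were called without Lmna-KO 2.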

How the results depend on the processing

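The log2 ratio of the Foxp3+ share kept its direction and its side of the threshold in 17 of 17 alternatives (0.52 to 1.89; 0.57 to 1.89 with a library left out). Of Foxp3+ against Foxp3-negative cells, 588 genes were called, 15 with at most 5% mitochondrial UMIs and 290 to 585 with a library left out. Between genotypes, 23 genes were called, 7 with at most 5% mitochondrial UMIs, 55 when Cd4 was asked of Foxp3+ cells, 9 with other lineages left out, 43 without myeloid or MHC class II-rich cells, 56 without a low-count filter and 37 to 61 with a library left out. The libraries of the 2 genotypes share a replicate number in the labels and nothing more; their deviations correlated at 0.196 in Foxp3+ cells and the replicate block gave 23 calls, 19 of them shared. For the difference of effects, 35 genes were called, 17 with at least 2 Foxp3 UMIs, 3 with at most 5% mitochondrial UMIs, 18 when Cd4 was asked, 6 with other lineages left out, 16 without myeloid or MHC class II-rich cells, 12 with DESeq2, 3 after thinning, 5 without the library block and 4 to 63 with a library left out. Signs turned for these log2 values. Foxp3+ against Foxp3-negative: Fgl2 -0.011 and Dusp1 -0.12 (no Cd4 asked). Genotype: Ctla4 0.10 (5% mitochondrial), Izumo1r -1.20 to 0.24 (library left out), Il2ra 0.022 (thinned). Difference of effects, without myeloid or MHC class II-rich cells: Cd74 -0.43, Il1b -1.50, S100a9 -0.85, Il2ra 0.069; with other lineages left out: Il1b -1.50, S100a9 -0.17, Il2ra 0.42, Lmna 0.033; with 5% mitochondrial: Pclaf 8.08, Ezh2 0.19; with Cd4 asked, Il1b -0.083; Il2ra also 0.013 (doublets out), 0.13 (2 Foxp3 UMIs), 0.56 (thinned); with a library left out, Il2ra -0.95 to 0.82, Ikzf2 -0.15 to 1.64, Izumo1r -1.60 to 0.18 and Lmna -1.52 to 0.42. The cause was not tested. The 9 Foxp3+ cells of WT 2 limit every genotype value.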
